A study of Saccharomyces cerevisiae with 8 samples.

Results

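The budding yeast strain H4H18A, in which histidine 18 of histone H4 was replaced by alanine, was compared with its wild-type control, the WT strain labelled H4 (WT H4). The comparison used the 4 libraries with these titles, 2 of H4H18A and 2 of WT H4, out of 8 libraries in the series. The other 4 were 2 of H4K16Q, 1 of H3E50A and 1 of a WT strain labelled H3 (WT H3). Of the 6600 features in the count tables, 5232 had 10 or more counts in at least 2 of the 4 libraries and were tested. RNA was sequenced from late log cultures at 16 h in rich glucose medium, and the study asked which genes differ before stationary phase in histone mutants whose cultures survive longer.

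All of these strains were described as derivatives of JDY86, a haploid of mating type a (MATa). In this background the gene pair HHT1-HHF1 is deleted and a synthetic H3-H4 pair, next to a URA3 marker, stands in place of HHT2-HHF2. LEU2, TRP1, MET15, URA3 at its own locus and the native HIS3 are also disrupted, and HIS3 is present only as a reporter at CAN1, driven by the promoter of MFA1. A further deletion, whose name is cut short in the printed genotype, was read as that of LYS2. The WT H4 strain carried the same background with unaltered histones, so the deletions and the reporter are shared by both groups. The strain field of the labels calls the mutant H3H18A, while the titles name H4H18A, which was followed here. The study described its replicates as independently prepared, without stating that they were separate clones.

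Histone H4 is a core subunit of the nucleosome, and its basic tail, which holds lysine 16 and histidine 18, forms part of the surface that the BAH domain of Sir3 binds. Sir3 acts with Sir2 and Sir4 in silencing the spare copies of the mating-type genes, HMLALPHA and HMRA, and genes near chromosome ends. The site of the substitution is shown by the reference sequence of HHF1, from residue 13 to residue 23, in the RefSeq annotation of R64 (chromosome II, 255613 to 255645, minus strand), with the codon of histidine 18 in capitals.
HHF1: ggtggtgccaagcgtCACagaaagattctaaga
HHF2 has the same letters at these residues (chromosome XIV, 576766 to 576798). The synthetic H4 gene of these strains was not part of the counted annotation, so the substitution itself could not be checked in the counts. HHF2, replaced in the genotype, had 0 counts in all 4 libraries, as had LEU2 and TRP1. MET17 (the RefSeq name of MET15) had at most 1 count in any of the 4, and LYS2 had 0 and 0 in H4H18A and 3 and 0 in WT H4. CAN1, where the reporter stands, had 0 and 0 in H4H18A but 0 and 15 in WT H4, and 12 in WT H3.

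The H4H18A libraries were shallow, with 621770 and 852659 counts in replicates 1 and 2, against 4296089 and 1196115 in WT H4. Levels are given as CPM, counts brought to one common library total with TMM scaling, and are not corrected for gene length. A gene listed at 0 can still have had up to 3 counts by chance, which is 7.2 and 3.41 CPM in H4H18A and 0.669 and 1.92 CPM in WT H4, and this floor covers counting error only. In these 4 libraries the ribosomal DNA features held 0.99% to 33.6% of the counts, and YGL088W, which overlaps a snoRNA gene, held 0.372% to 22.9%. No pair of libraries was less alike than the WT H4 replicates, with a Spearman correlation of 0.528 across the 5232 genes, against 0.775 for the H4H18A replicates. WT H4 replicate 2 was closer to H4H18A replicate 2 (0.926) and to WT H3 (0.946) than to its own replicate. Genes are not independent replicates, so these coefficients are descriptions.

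The quasi-likelihood test of edgeR called 0 of the 5232 genes (0%) after Benjamini-Hochberg adjustment, and the smallest adjusted p-value was 0.9996. Counting genes by an unadjusted p under 0.05, 2 were higher in H4H18A (0.0382%) and 109 were lower (2.08%). DESeq2 called 2 genes, BAR1 lower (0.0191%) and YFL067W higher (0.0191%), and edgeR's likelihood-ratio test called these and MCO32, 1 higher (0.0191%) and 2 lower (0.0382%). Both H4H18A libraries lay above both WT H4 libraries for 557 genes (10.6%) and below both for 801 (15.3%). By the sign of the log2 fold change alone, 2854 of the 5232 genes were lower and 2378 higher. Counts of lower or higher members of the lists below are to be set beside these. With 2 libraries against 2, an exact permutation test over samples cannot give a p below 0.333, so it decides nothing for a single gene. Since no gene passed the main test, differences below are given as levels and are called neither a rise nor a fall. Scaling by total counts alone moved the median of all genes from -0.07 to -0.54 log2 units, and every list moved with it.

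Most of the lower genes at that p, 71 of 109, had fewer than 10 counts in both H4H18A libraries. Among the 402 genes that reached 10 counts in both WT H4 libraries and in neither H4H18A library, which entered the test only because they were counted in WT H4, so that a lower level is built into their choice, 212 (52.7%) had both H4H18A libraries below both WT H4 libraries, 71 (17.7%) were lower at an unadjusted p under 0.05 and the median log2 fold change was -1.31. Among the 3595 genes with 10 or more counts in all 4 libraries, 8 were lower (0.223%) and the median was 0.07, and when these genes were fitted alone 25 were lower and the median was -0.08. With all libraries thinned to the total of the shallowest, 84 of 4771 genes (1.76%) were lower and 7 higher at that p. Thinning matched the totals and not the depth over the tested genes, since ribosomal DNA features and YGL088W took unequal shares.

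**Figure D1:**
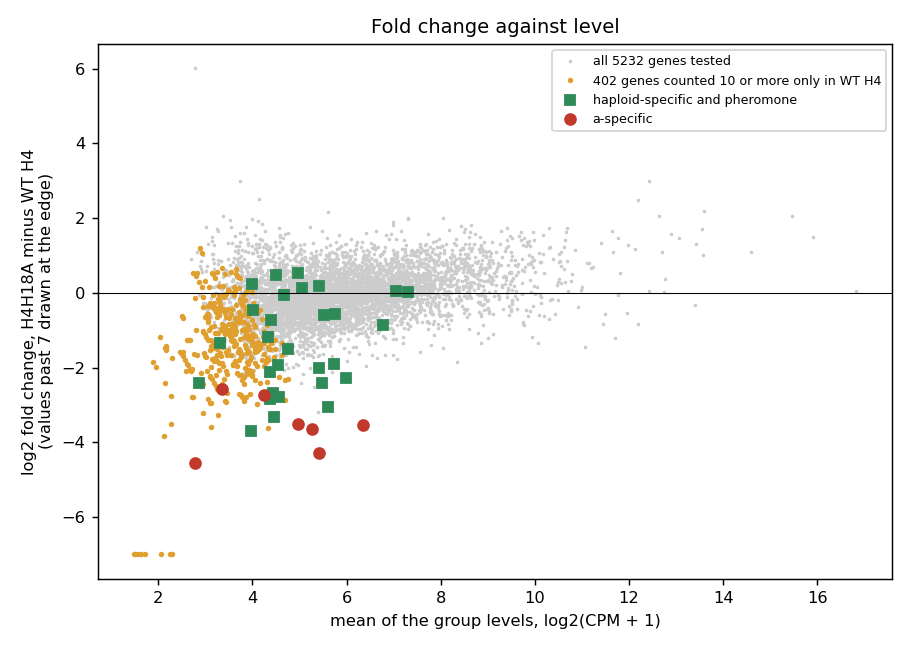
Each point is a tested gene, with the mean of the group levels in log2(CPM + 1) on the x axis and the log2 fold change of H4H18A minus WT H4 on the y axis (values past 7 at the edge), and orange marks the 402 genes with 10 or more counts in both WT H4 libraries and in neither H4H18A library. The 7 a-specific genes (red circles) lie between -2.58 and -4.57, at the lower edge of the cloud for their level, while the haploid-specific and pheromone genes (green squares) reach down to -3.69 for HO.

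Of the lists with 7 or more tested genes, the a-specific genes, which mark one mating type, had the lowest median relative to WT H4. In MATa cells the transcription factor Mcm1 activates the a-specific genes, which make a-factor, its export and processing machinery and the receptor for alpha-factor. In alpha cells the repressor alpha2 binds with Mcm1 at the same promoters and turns them off, and in a/alpha cells alpha2 with a1 also turns off the haploid-specific genes. Silencing of HMLALPHA by the Sir proteins keeps alpha2 out of MATa cells. The promoters of the a-specific genes therefore carry a known operator, and it is shown here for the 7 members because of that median. The letters GTNNTTNCCNNNNNNGG were searched on both strands in the 600 bases before each coding start of R64, and capitals mark the fixed letters.
MFA1: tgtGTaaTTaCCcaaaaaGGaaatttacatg
MFA2: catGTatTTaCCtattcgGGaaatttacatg
STE2: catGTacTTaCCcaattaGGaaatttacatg
STE6: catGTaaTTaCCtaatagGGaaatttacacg
BAR1: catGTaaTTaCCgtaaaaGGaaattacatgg
AGA2: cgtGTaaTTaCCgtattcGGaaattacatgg
ASG7: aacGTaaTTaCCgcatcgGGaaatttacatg
These letters were loosened until all 7 promoters held a match, so the match is no finding. They occur in 85 of 5917 promoters of this length (1.44%). BAR1 and AGA2 also match on the other strand, 1 base away, at an overlapping place. The tighter form CATGTNNTTACCNNNNNNGG occurs in 5 promoters (0.0845%), those of BAR1, STE2, STE6, MFA2 and GYP8, of which GYP8 shares its upstream region with STE2. The sites lie at chromosome IX, 322078 to 322108, for BAR1, chromosome VI, 82351 to 82381, for STE2, and chromosome XI, 46477 to 46507, for STE6.

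All 7 listed a-specific genes were in the files and were tested, and both H4H18A libraries lay below both WT H4 libraries for each of them, against 15.3% of all genes. Of the 7, 6 passed the count rule only through WT H4, where they are high, and of all genes that passed in this way 52.7% had both H4H18A libraries below, so the count of the 7 is a description and not support. BAR1, which encodes the secreted protease that cleaves alpha-factor, had 6 and 6 counts in H4H18A replicates 1 and 2 (14.4 and 6.82 CPM) and 432 and 246 counts in WT H4 (96.4 and 157 CPM). Its log2 fold change was -3.65 (standard error 0.72), and its unadjusted p of 0.000588 was the smallest of all genes in the main edgeR test, where the adjusted p was 0.9996. DESeq2 gave BAR1 an adjusted p of 0.000425 and edgeR's likelihood-ratio test one of 0.0415, both with Benjamini-Hochberg adjustment. The gap from the lower WT H4 library of BAR1 to the higher H4H18A library was -2.71 log2 units.

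STE6, the transporter that exports a-factor, is the one a-specific gene counted 10 or more times in every library. It stood at 10 and 20 counts in H4H18A (24.0 and 22.7 CPM) and 655 and 618 in WT H4 (146 and 395 CPM), a log2 fold change of -3.53 (standard error 0.96). STE2, the receptor for alpha-factor, had 6 and 4 counts in H4H18A and 354 and 408 in WT H4 (14.4 and 4.55 against 79.0 and 261 CPM), and its log2 fold change was -4.28 (standard error 1.26). The groups of both genes were far apart, although the WT H4 replicates themselves differed more than 2-fold in CPM. The a-factor genes were counted less often. MFA2 had 8 and 0 counts in H4H18A and 336 and 170 in WT H4 (19.2 and 0 against 74.98 and 108.7 CPM), and MFA1 had 1 and 0 against 59 and 43 (2.4 and 0 against 13.2 and 27.5 CPM). Apart from MFA2 in replicate 1, the H4H18A counts of these a-factor genes were under 3. AGA2, the binding subunit of a-agglutinin, had 4 and 4 counts in H4H18A and 120 and 96 in WT H4, and ASG7, which acts on the receptor system after mating, had 1 and 4 against 140 and 20.

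The median log2 fold change of the 7 was -3.53, where that of all genes tested was -0.07. It lay between -4.21 and -3.05 when any 1 of the 4 libraries was left out, and was -3.11 over the 6 that passed in thinned counts. Each of the 7 had an unadjusted p under 0.05 in the main edgeR test, which 2.08% of all genes had in this direction. Among the genes that passed the count rule only through WT H4, as 6 of the 7 did, 17.7% had it. This count is therefore also a description and not support. In WT H3, which entered no test of the main comparison and is scaled by its total alone, BAR1 stood at 173 CPM, STE2 at 258, STE6 at 346 and MFA2 at 90.5 CPM, all at or above the lower WT H4 library, while ASG7 stood at 5.14 CPM (8 counts), close to H4H18A replicate 2. In bulk RNA, fewer cells with the a-specific programme and less of it per cell cannot be told apart.

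**Figure D2:**
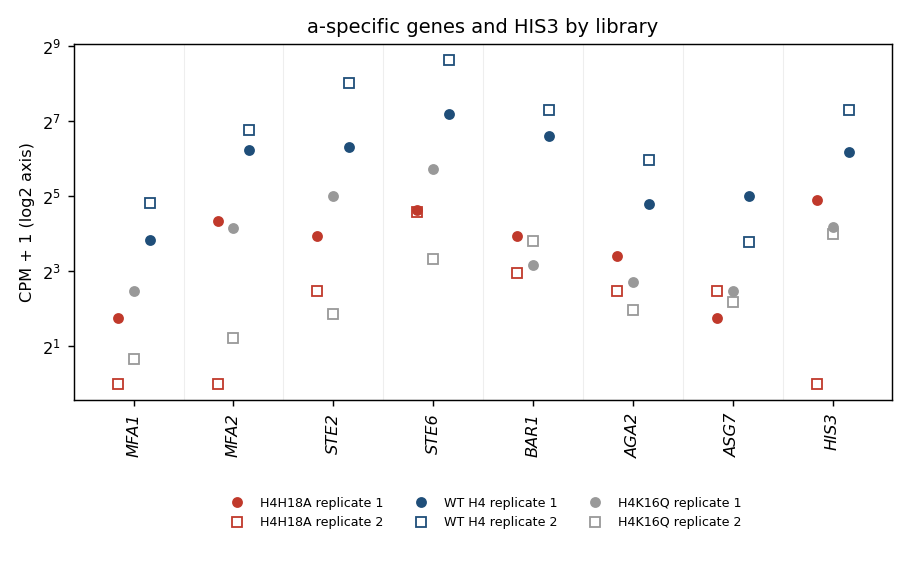
Levels of the 7 a-specific genes and of HIS3, as CPM + 1 on a log2 axis, with 1 point per library for H4H18A (red), WT H4 (blue) and H4K16Q (grey), and a value of 1 for a library with 0 counts. In every one of these genes both red points lie under both blue points; for BAR1 they are at 14.4 and 6.82 CPM against 96.4 and 157 CPM.

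HIS3 gave a further reading of an a-specific promoter, since the only HIS3 copy of the genotype is driven by that of MFA1. It had 12 and 0 counts in H4H18A and 318 and 247 in WT H4 (28.8 and 0 against 71.0 and 158 CPM), and 233 counts in WT H3. The groups did not overlap, and the log2 fold change was -3.18 (standard error 1.23). Without H4H18A replicate 1, where the mutant is then at 0, the fitted value depends on the prior count and is no estimate, and without H4H18A replicate 2 it was -1.90. HIS3 was therefore the one gene of the strain genotype whose libraries separated. HHT1 had 187 and 32 counts in H4H18A and 731 and 88 in WT H4, and HHF1 had 54 and 12 against 202 and 22, although the genotype gives this pair as deleted. HHT2 had 113 and 20 against 444 and 44 counts. The 2 H3 genes are near-identical in sequence, so their counts are uncertain, and for each of these 3 histone genes the groups overlapped and the direction turned without H4H18A replicate 1.

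The haploid-specific genes encode the signalling pathway that both mating types share, from the G protein at the receptor through a kinase cascade to the transcription factor Ste12, together with genes that only haploids use. Several carry the operator of the a1-alpha2 repressor. The letters TGTNNNNNNNNACATCA, searched in the same way, occur in 56 of 5917 promoters (0.946%). The matches in the promoters of the genes described next are shown, with fixed letters in capitals.
HO: TGTatttagttACATCA
HO, another match: TGTtattatttACATCA
HO, one more match: TGTccacattaACATCA
STE5: TGTtaatttacACATCA
RME1: TGTcacagattACATCA
GPA1: TGTtaaaaagcACATCA
NEJ1: TGTaaaaaaatACATCA
STE4, FUS3, SST2, AXL1 and AGA1 have no match to these letters in this window, which says nothing of the factor.

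Of the 35 listed haploid-specific and pheromone genes, 29 were tested, and 22 of these were lower in H4H18A than in WT H4 and 7 higher. Both H4H18A libraries lay below both WT H4 libraries for 13 of the 29, against 15.3% of all genes, and above for 1, DIG2, against 10.6%. At an unadjusted p under 0.05, 11 were lower, against 2.08% of all genes. The median log2 fold change was -1.34, and leaving out 1 library at a time it ran from -1.40 to -0.9985. With total counts alone as the scaling all 29 were lower. Since 9 of the 29 passed the count rule only through WT H4, these counts describe the members and do not support a direction. Over the 11 members with 10 or more counts in every library, fitted with such genes only, the median was -0.12, with 1 at that p. The members thus differed widely among themselves.

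The G protein and its regulators were among the lowest. STE4, the beta subunit, had 2 and 10 counts in H4H18A and 203 and 116 in WT H4 (4.8 and 11.4 against 45.3 and 74.2 CPM), a log2 fold change of -2.79 (standard error 0.76). GPA1, the alpha subunit, had 5 and 4 against 86 and 124 counts (log2 fold change -2.67, standard error 0.91), and SST2, which switches the alpha subunit off, had 6 and 1 against 115 and 110. All 3 were separated from WT H4, but GPA1 and SST2 passed the count rule only through WT H4. Of all genes that passed in this way, 52.7% had both H4H18A libraries below both WT H4 libraries. STE18, the gamma subunit, was not tested, with 0 and 0 counts in H4H18A and 72 and 5 in WT H4. Below the G protein, the scaffold STE5 had 16 and 4 counts in H4H18A and 355 and 129 in WT H4 (38.4 and 4.55 against 79.2 and 82.5 CPM), and the kinase FUS3 had 6 and 0 against 266 and 90 (14.4 and 0 against 59.4 and 57.6 CPM). FUS3, like HO and MFA2, rests on a library with 0 counts in H4H18A, and all of these passed the count rule only through WT H4. STE12 did not separate, at 52.8 and 34.1 CPM in H4H18A and 47.8 and 79.9 in WT H4.

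Genes that act outside the cascade were also low. RME1, a haploid-specific regulator that represses entry into meiosis, had 8 and 12 counts in H4H18A and 936 and 92 in WT H4 (19.2 and 13.7 against 209 and 58.8 CPM), and a log2 fold change of -3.06 (standard error 0.77). HO, the endonuclease of mating-type switching, had 0 and 6 counts against 158 and 114 (0 and 6.82 against 35.3 and 72.9 CPM), and a log2 fold change of -3.69 (standard error 0.99). AXL1, which processes a-factor and directs axial budding in haploids, had 7 and 18 counts against 344 and 194 (16.8 and 20.5 against 76.8 and 124 CPM), a log2 fold change of -2.41 (standard error 0.65). For each of these the higher H4H18A library was below the lower WT H4 library. HO passed the count rule only through WT H4, so a lower level is built into its choice. AGA1, the anchor subunit of a-agglutinin, was counted 10 or more times in every library and is not subject to the limit of the count rule. It stood at 10 and 28 counts in H4H18A and 579 and 226 in WT H4 (24.0 and 31.8 against 129 and 144.5 CPM), a log2 fold change of -2.28 (standard error 0.68), and leaving out 1 library moved it only between -2.43 and -2.10. NEJ1, a regulator of end joining that also passed only through WT H4, had 0 and 4 against 64 and 25 counts. KAR3, a kinesin of nuclear fusion, had 4 and 18 against 244 and 54.

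Genes that pheromone induces did not all separate. FAR1, the cell cycle inhibitor of the pheromone response, stood at 14.4 and 38.7 CPM in H4H18A and 37.5 and 168 in WT H4, and FUS1, a cell fusion protein, at 19.2 and 6.82 against 37.3 and 17.9 CPM, so that their groups overlapped. PRM4 and PRM5, of unsettled function, were high only in WT H4 replicate 1 (70.1 and 66.7 CPM), and WT H4 replicate 2 (9.59 and 16.6 CPM) stood with H4H18A (9.6 and 9.1 CPM, and 16.8 and 6.82 CPM). The members not tested besides STE18 were FUS2, with 2 and 4 counts in H4H18A and 384 and 6 in WT H4, PRM3, with 1 and 0 against 49 and 7, PRM6, with 4 and 0 against 64 and 6, FIG1, with 0 and 0 against 47 and 2, and KAR5, with 6 and 4 against 30 and 8. On the CPM scale WT H4 replicate 1 was the highest library for STE18, FUS2, PRM3, PRM6 and FIG1, while KAR5 stood at 14.4 and 4.55 CPM in H4H18A and 6.69 and 5.12 in WT H4.

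**Figure D3:**
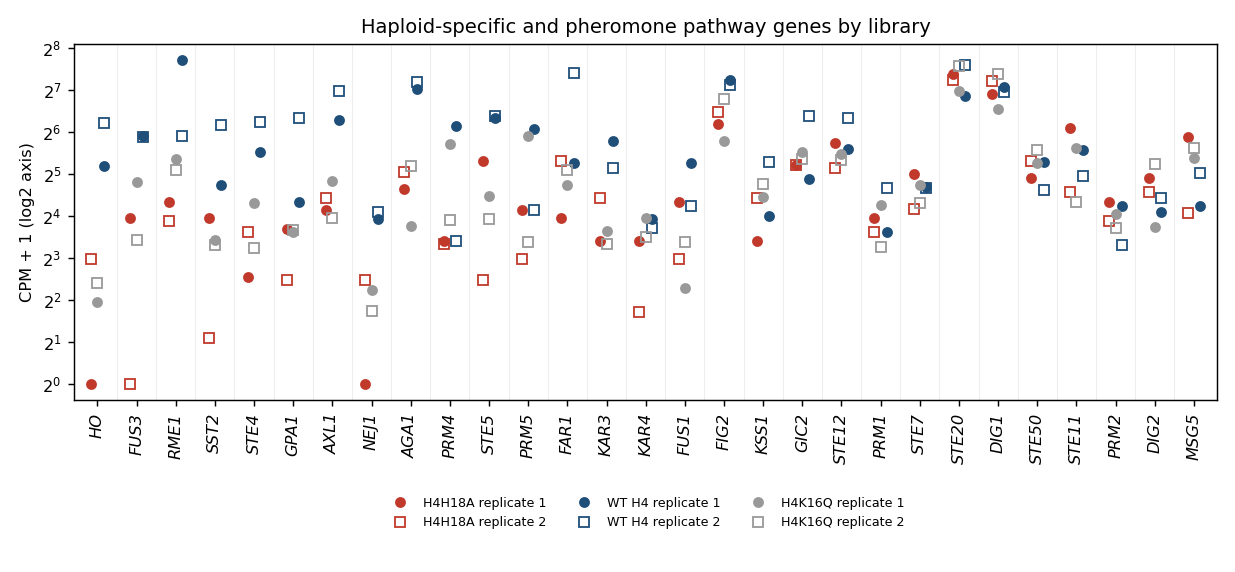
Levels of the 29 tested haploid-specific and pheromone genes, ordered by log2 fold change from HO (-3.69) at the left as CPM + 1 on a log2 axis with 1 point per library. Both H4H18A points (red) lie under both WT H4 points (blue) in 13 of them, nearly all in the left part of the plot.

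The 4 markers of the other mating type did not share a direction. SAG1, alpha-agglutinin, was the only one with enough counts to be tested, at 4 and 26 counts in H4H18A and 191 and 54 in WT H4 (9.6 and 29.6 against 42.6 and 34.5 CPM), a log2 fold change of -0.92 (standard error 0.66). The other 3 were higher in H4H18A in the fit without a filter on low counts. MF(ALPHA)2, an alpha-factor gene, had 5 and 6 counts in H4H18A and 2 and 0 in WT H4 (12 and 6.82 against 0.446 and 0 CPM), a log2 fold change of 4.84 and an unadjusted p of 0.0105 in that fit. STE3, the a-factor receptor, had 6 and 6 against 30 and 6 counts (14.4 and 6.82 against 6.69 and 3.84 CPM), with 0.94 and an unadjusted p of 0.411. For both genes the H4H18A libraries lay above both WT H4 libraries, on counts of 6 or fewer. WT H3, with a total of 1561683 counts and not part of that fit, had 6 counts of MF(ALPHA)2 and 12 of STE3. MF(ALPHA)1 had 4 and 2 against 32 and 0 counts (9.6 and 2.27 against 7.14 and 0 CPM), and its groups overlapped. Of the genes of the silent loci and MAT, HMLALPHA1 had 0 counts in all 4 libraries, HMLALPHA2 and HMRA2 each had 1 in H4H18A replicate 2 only, and MATALPHA2, identical in sequence to HMLALPHA2 over most of its length, had 1 and 0 in H4H18A and 2 and 0 in WT H4. The fitted values of these 3 were above 0 but rest on 1 count each in H4H18A, under the floor, so no direction was read from them. A count of 0 allows up to 7.2 and 3.41 CPM in the H4H18A libraries, so expression below that was not detectable. The reference genome is of an alpha strain, so a1 transcripts of MATa are annotated only at HMRA1. It had 4 and 0 counts in H4H18A and 129 and 12 in WT H4 (9.60 and 0 against 28.8 and 7.67 CPM). The groups of HMRA1 thus overlapped, and it passed the count rule only through WT H4. Reads from the silent loci and from MAT cannot be told apart where their sequence is shared, and how the counting treated such reads is not given in the sources used here.

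Genes of meiosis and sporulation, which haploids in rich medium hardly use, were at low levels throughout, and 30 of 62 were tested, 12 of them only through WT H4. Of the 30, 27 were lower in H4H18A with a median log2 fold change of -1.23, and 13 had both libraries below WT H4, against 15.3% of all genes and 52.7% of those that passed only through WT H4, so these counts too describe and do not support. IME1, the inducer of meiosis, had 2 and 4 counts in H4H18A and 238 and 10 in WT H4, and its log2 fold change, -2.70 with a standard error of 1.09, came to -0.46 once WT H4 replicate 1 was dropped. SPO20, of the spore membrane, had 0 and 4 counts against 134 and 21. LOH1, a gene of spore wall assembly, had 0 and 0 counts in H4H18A and 114 and 11 in WT H4, at least 3.06-fold lower against the mean of the floors of 3 counts per library, and at least 1.33-fold lower against WT H4 replicate 2 alone. Without WT H4 replicate 1 the median of the list was -0.18, with 17 of 30 lower.

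Single members of several lists were lower. Of cell cycle, peroxisome and mitochondrial ribosome genes, 13.7%, 15.8% and 17.9% had both H4H18A libraries below both WT H4 libraries. Above them lay 7.37%, 2.63% and 14.9%. For respiratory complex assembly and splicing factors, 18.2% and 19.7% lay below and 5.45% and 2.82% above. Of all genes 15.3% lay below and 10.6% above. The members named from these lists are therefore examples and no result about the lists. Of the genes named here, ATG17, CBP6, MCO32, CLB6, MRP2 and ICS2 passed the count rule only through WT H4. A lower level is thus built into their choice. Of all genes that passed in this way, 52.7% had both H4H18A libraries below both WT H4 libraries. In autophagy, 26 of 32 tested genes were lower, with a median of -0.65, where 2854 of all 5232 genes were lower. Both H4H18A libraries lay below both WT H4 libraries for 8 of the 32 (25%), against 15.3% of all genes. The scaffold genes ATG17 (2 and 2 counts against 104 and 21) and ATG11 (24.0 and 18.2 against 80.3 and 56.3 CPM) had log2 fold changes of -2.50 and -1.71 (standard errors 0.93 and 0.70). Without WT H4 replicate 1 the autophagy median was 0.04. CBP6, a translation factor for mitochondrial cytochrome b, had 0 and 0 counts in H4H18A and 167 and 13 in WT H4, at least 4.30-fold lower by the same floor. MCO32, a mitochondrial protein, likewise had 0 and 0 against 154 and 13 counts and was at least 4.02-fold lower. Both had 13 counts in WT H4 replicate 2, against which alone either bound is 1.57-fold. Among cell cycle genes, CLB6, a B-type cyclin of S phase, had 0 and 4 counts against 190 and 19, and SCC2, the cohesin loader, stood at 7.2 and 27.3 against 69.6 and 51.8 CPM, while the median of the 95 tested genes was -0.07, equal to that of all genes. CLF1, a splicing factor, stood at 14.4 and 29.6 CPM in H4H18A and 65.2 and 65.9 in WT H4, the MRP2 protein of the mitochondrial ribosome at 4.8 and 2.27 against 17.4 and 14.7, and PEX28, a peroxisomal membrane protein, at 9.6 and 20.5 against 106 and 34.5. The gene with the fourth smallest p among the lower genes, ICS2, of unknown function, stood at 14.4 and 4.55 CPM against 73.2 and 52.4 (log2 fold change -2.85, standard error 0.75).

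**Figure D4:**
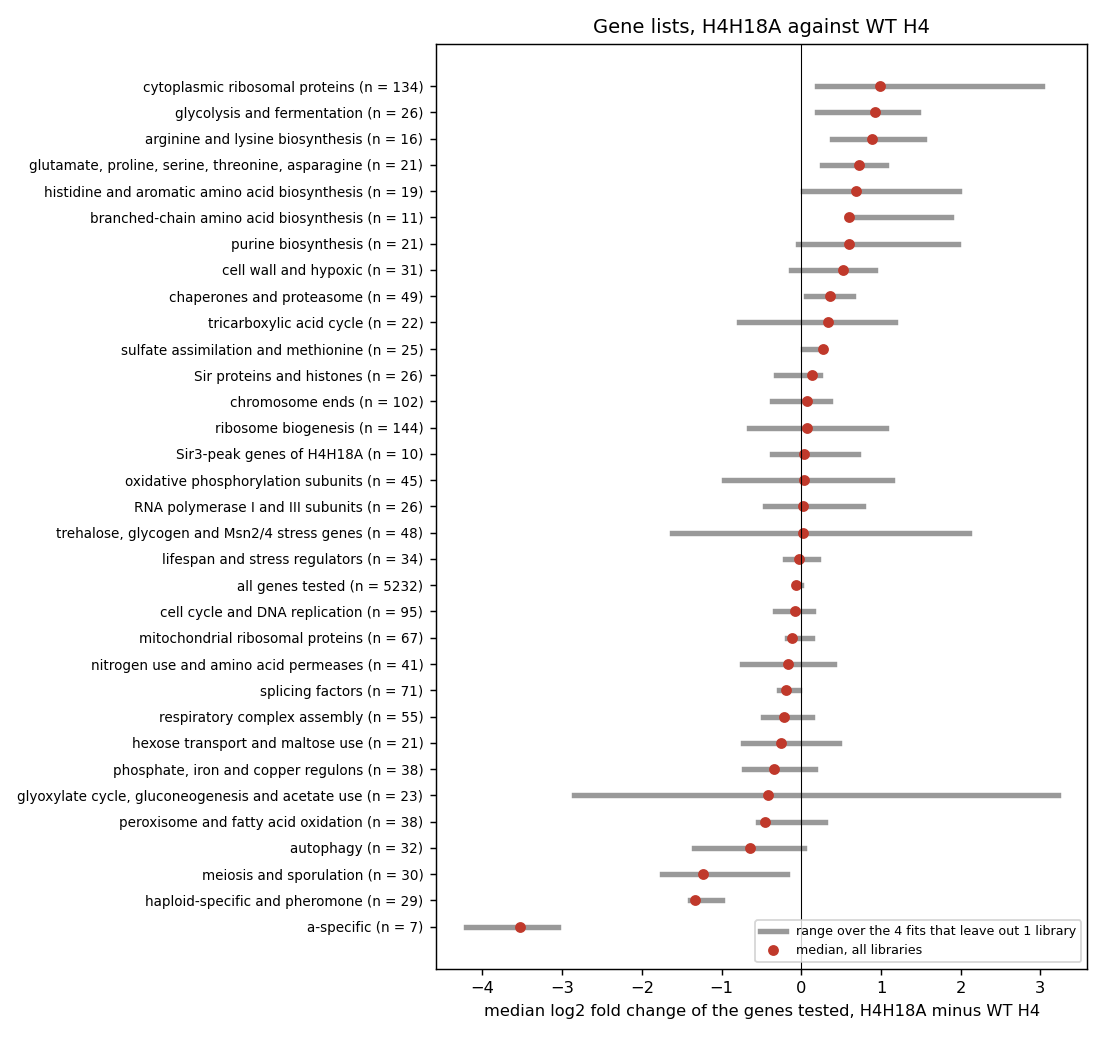
Median log2 fold change of H4H18A minus WT H4 for each gene list with 7 or more tested genes (red points), with grey bars for the range of that median over the 4 fits that leave out 1 library each. The a-specific list stands at -3.53 with a range that stays below -3.05, and the lists at the top, such as cytoplasmic ribosomal proteins (0.99), have bars that reach from 0.20 to 3.02.

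Several lists of growth and biosynthesis had medians above 0, but for some of them the median was small. Ribosome biogenesis had 80 of 144 genes higher and a median of 0.07, subunits of RNA polymerases I and III had 13 of 26 and 0.02, and sulfate assimilation and methionine 17 of 25 and 0.27. Over all genes the median was -0.07, with 2378 of 5232 higher. For the 134 tested genes of cytoplasmic ribosomal proteins the median log2 fold change was 0.99, with 128 higher, and 45 had both H4H18A libraries above both WT H4 libraries, against 10.6% of all genes. No gene of the ribosomal protein, glycolysis, amino acid or purine lists had an unadjusted p under 0.05 in this direction. The WT H4 replicates themselves differed by a median of -2.71 log2 units over these genes, replicate 1 being the low one, and the H4H18A replicates by 0.42. Without WT H4 replicate 1 the median was 0.20, and without WT H4 replicate 2 it was 3.02. RPL4B, a protein of the large subunit, stood at 1046 and 462 CPM in H4H18A and 70.1 and 354 in WT H4, which shows the same order of libraries. Its paralog RPL4A is nearly identical, so the split between them is uncertain.

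Glycolysis and fermentation genes were higher for 23 of 26, with a median of 0.92 and 13 of 26 separated above WT H4 against 10.6% of all genes. ENO2, enolase, stood at 17330 and 8752 CPM in H4H18A and 635 and 5618 in WT H4, a log2 fold change of 2.06 (standard error 1.97). PDC1, pyruvate decarboxylase, stood at 30740 and 12370 against 3065 and 10210 CPM, and CDC19, pyruvate kinase, at 7634 and 3702 against 817 and 2802. In all 3 the H4H18A libraries were above WT H4. However, WT H4 replicate 2 was nearer to H4H18A replicate 2 than to its own replicate. Without H4H18A replicate 1 the list's median was 0.19, and without WT H4 replicate 1 it was 1.09.

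Genes of amino acid biosynthesis were higher for 14 of 16 in the arginine and lysine list, 9 of 11 in the branched-chain list, 15 of 19 in the histidine and aromatic list and 19 of 21 in the glutamate, proline, serine, threonine and asparagine list. The medians were 0.89, 0.60, 0.69 and 0.72, and leaving out 1 library they remained above 0, with lowest values of 0.38, 0.58, 0.03 and 0.26. LYS9, saccharopine dehydrogenase of lysine synthesis, stood at 125 and 147 CPM in H4H18A and 51.5 and 80.6 in WT H4, a log2 fold change of 1.04 (standard error 0.61). LYS2, read as deleted, is the listed lysine gene that was not tested. ILV2, acetolactate synthase, stood at 667 and 644 against 135 and 396 CPM, and ARG1, argininosuccinate synthase, at 2006 and 1975 against 92.4 and 1260. The H4H18A replicates of these 3 genes agree closely and the WT H4 replicates do not. HIS4, of histidine synthesis, stood at 1771 and 1267 against 120 and 1032 CPM. Purine biosynthesis had 19 of 21 genes higher and a median of 0.60, with ADE3, of one-carbon metabolism, at 2183 and 1738 against 584 and 1097 CPM and IMD2, IMP dehydrogenase, at 288 and 192 against 12.5 and 117. IMD2 has close paralogs, and without WT H4 replicate 1 the purine median was -0.04.

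The genes with the widest gaps above WT H4, at a mean of at least 50 CPM, were a mixed set. YLR154W-E and YLR154W-F, which lie in the ribosomal DNA by name, had gaps of 1.76 and 1.11 log2 units, with 12830 and 18220 CPM in H4H18A against 102 and 3778 in WT H4 for the first. ALG3, a mannosyltransferase of protein glycosylation, stood at 74.4 and 79.6 CPM in H4H18A and 16.96 and 32.62 in WT H4, a log2 fold change of 1.65 (standard error 0.76). The cell wall proteins NCW1 and NCW2 stood at 396 and 239 against 47.8 and 109 CPM, and at 158 and 137 against 65.2 and 62.0 CPM. For NCW2 the WT H4 replicates were nearly equal and the groups lay 1.06 log2 units apart. EMC3, of the membrane protein complex of the endoplasmic reticulum, stood at 139 and 155 against 74.5 and 72.9 CPM, and PAC11, a dynein intermediate chain, at 91.2 and 72.8 against 34.1 and 39.0. CIP1, an inhibitor of cyclin-dependent kinase, stood at 202 and 143 against 37.5 and 72.3 CPM. EMC3, NCW2 and PAC11 were therefore higher against both WT H4 libraries, which differ so much elsewhere.

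Of the 2 genes higher at an unadjusted p under 0.05, YFL067W, an uncharacterised gene at a chromosome end (chromosome VI, 836 to 1363), had 14 and 19 counts in H4H18A and 0 and 2 in WT H4 (33.6 and 21.6 against 0 and 1.28 CPM), but 42 counts in WT H3 (27.0 CPM). YFL067W was the only 1 of the 5232 tested genes that passed the count rule through H4H18A alone, so a higher level is built into its choice. The other, RCR1, of chitin deposition, stood at 74.4 and 59.1 against 13.8 and 25.6 CPM, with 64.2 CPM in WT H3. For both genes WT H3 was thus with H4H18A and not with WT H4. Proteasome genes RPT1, at 273.5 and 341 against 82.3 and 198 CPM, and PRE3, at 91.2 and 89.8 against 35.3 and 56.3, were among the 16 of 49 genes of chaperones and the proteasome that lay above WT H4 (10.6% of all genes did), with the ribosome-bound chaperone SSB2 (2373 and 1128 against 140 and 1000 CPM). That list's median of 0.36 was -0.14 with total counts alone as the scaling, where the median of all genes was -0.54 in place of -0.07. The mannoproteins CWP2 (4119 and 1906 against 559 and 1242 CPM) and CIS3 (808 and 651 against 61.4 and 426 CPM) were among the 6 of 31 above WT H4 in the cell wall list, again beside 10.6% of all genes, whose median of 0.52 was -0.08 under the same scaling.

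**Figure D5:**
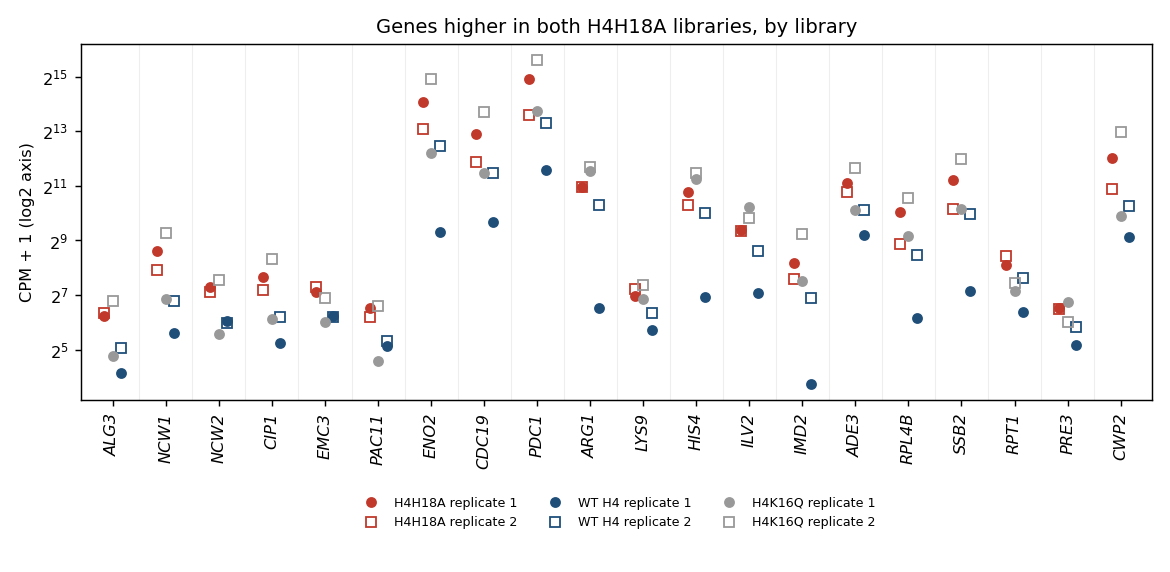
Levels of 20 genes higher in both H4H18A libraries (red) than in both WT H4 libraries (blue), from the widest gaps and from the biosynthesis, ribosome and proteasome lists, as CPM + 1 on a log2 axis with 1 point per library and H4K16Q in grey. In EMC3 and NCW2 the WT H4 points coincide (74.5 and 72.9 CPM, and 65.2 and 62.0 CPM), while in ENO2 they stand at 635 and 5618 CPM.

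No gene of silencing and chromatin on the list had an unadjusted p under 0.05. SIR3 stood at 43.2 and 27.3 CPM in H4H18A and 47.8 and 46.0 in WT H4, and SIR4 at 47.98 and 50.04 against 93.5 and 76.1, a log2 fold change of -0.79 (standard error 0.55). The deacetylase genes SIR2 (4.8 and 25.02 against 30.4 and 9.59 CPM) and HST1 (28.8 and 36.4 against 58.9 and 66.5 CPM) differed in that only HST1 was separated, and SIR1, which recruits the others to the silent loci, overlapped (9.6 and 18.2 against 52.2 and 11.5 CPM). DOT1, the methyltransferase of H3 lysine 79, stood at 16.8 and 22.7 against 39.7 and 37.1 CPM, and SAS5, a subunit of the complex that acetylates H4 lysine 16, at 28.8 and 40.9 against 21.6 and 13.4. Over the 26 tested Sir and histone genes the median was 0.14, with 4 above WT H4 and 5 below, 15.4% and 19.2% against 10.6% and 15.3% of all genes.

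Of the genes within 20 kb of a chromosome end, 102 of 244 were tested, with a median log2 fold change of 0.07, 20 above both WT H4 libraries and 13 below. That is 19.6% and 12.7% of the list, against 10.6% and 15.3% of all genes, and 1 gene in each direction was past an unadjusted p of 0.05. These were YFL067W and TOG1, an activator of oleate genes, at 9.6 and 6.82 against 42.4 and 19.2 CPM. FEX2, a fluoride exporter, was separated too, at 4.8 and 4.55 against 13.4 and 21.1 CPM. TOG1 and FEX2 passed the count rule only through WT H4 and YFL067W only through H4H18A, so their directions are built into their choice. Of the chromosome end genes tested, 17.6% passed only through WT H4, against 7.68% of all genes, so these counts are descriptions. The list of Sir3-peak genes held 12 genes where the study placed peaks in H4H18A in stationary phase, without genes of Ty elements. Of these, 10 were tested, with a median of 0.04. QCR6, of respiratory complex III, was alone in lying outside the WT H4 range, above it, at 446 and 599 against 248 and 379 CPM. That is 10% of the tested genes, against 10.6% of all genes above both WT H4 libraries. The study listed QCR6 and PHO4 with Sir3 peaks in WT too. With total counts alone the medians of the Sir and histone, chromosome end and Sir3-peak lists were -0.30, -0.41 and -0.39, near the -0.54 of all genes.

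Genes of stress and of respiratory carbon use followed the replicate number more than the strain. CTT1, cytosolic catalase, stood at 705 and 63.7 CPM in H4H18A and 512 and 21.7 in WT H4, so that both replicate 1 libraries were high. Over the 48 tested trehalose, glycogen and Msn2/4 genes, replicate 1 exceeded replicate 2 by a median of 2.21 log2 units in H4H18A and 2.87 in WT H4, and over 23 genes of the glyoxylate cycle, gluconeogenesis and acetate use by 3.45 and 4.01. The medians between strains were 0.02 and -0.42, and leaving out 1 library they ran from -1.62 to 2.11 and from -2.86 to 3.22. No difference between the strains was detectable for these lists. Of the 34 tested regulators of lifespan and stress, 2 lay above WT H4, RAS2 (369.5 and 368.5 against 190 and 220 CPM) and MSN4 (144 and 111 against 58.9 and 93.4 CPM), and 2 below, GCN2 and TOR1. That is 5.88% in each direction, against 10.6% and 15.3% of all genes, and their median was -0.04.

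H4K16Q, the other substitution in the H4 tail, was set beside H4H18A. Both are compared with the same WT H4 libraries, so their log2 fold changes are given side by side and no overlap is drawn from them. For the a-specific genes the medians were -3.53 in H4H18A and -3.31 in H4K16Q, and for BAR1 they were -3.65 and -3.58, STE2 -4.28 and -3.32, and STE6 -3.53 and -3.14. For the haploid-specific and pheromone list they were -1.34 and -0.62, while the median of the direct differences between the mutants was -0.10. The direct comparison of the mutants does not use WT H4. In it the same edgeR test called 0 of the 5232 genes (0%), with 41 higher in H4H18A (0.784%) and 38 lower (0.726%) at an unadjusted p under 0.05, while DESeq2 called 9. The log2 difference of H4H18A minus H4K16Q was -0.07 for BAR1 (standard error 0.69), -0.39 for STE6 (standard error 0.90), -0.96 for STE2 (standard error 1.19) and -1.18 for RME1 (standard error 0.74). None of the 4 passed the test, which does not show that the mutants are alike. The ribosomal DNA feature YLR154W-E stood apart in the same comparison, at 96.3 and 35.0 CPM in H4K16Q against 12830 and 18220 in H4H18A. The ribosomal DNA features as a whole held 0.254% and 0.18% of the counts in H4K16Q and 16.3% and 33.6% in H4H18A. They held 0.99% and 21.2% in WT H4 and 33.9% in WT H3, so a high share was not particular to H4H18A. The part of this share in the difference was not tested.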

How the data were processed

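RNA from late log cultures was sequenced as 100 nt pairs from a stranded total RNA kit. The authors trimmed with Trim Galore, aligned with STAR to R64 and counted with featureCounts, and the deposited tables hold raw counts per feature, 1 table per library. Versions, the strand setting and the treatment of multiply mapped reads are not given in the sources used here. Deposited tables of the authors' own edgeR comparisons (fold changes and p-values) and genes of Ty elements were not used. IDs were matched to RefSeq R64 for 5917 of 6600 features (89.7%).

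Features with 10 or more counts in at least 2 of the 4 libraries were kept, scaled by TMM and tested with edgeR 4.0.16 (R 4.3.3), with the 6 libraries of H4H18A, WT H4 and H4K16Q in 1 quasi-likelihood fit (3 residual degrees of freedom), a Benjamini-Hochberg threshold of 0.05 and a prior count of 2 for log2 CPM. Alternatives were DESeq2 1.42.0, the likelihood-ratio test, other scalings, filters and libraries, thinned counts, a replicate block and leaving out each library, 17 in all. Totals ran from 621770 to 10529401 counts, so low genes are least precise in H4H18A. The script was tested on simulated data.

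Genes were named by rule. These were the 8 widest gaps between groups in each direction at a mean of 50 CPM or more, the 5 smallest p-values in each direction, the tested members of 8 small lists, and up to 3 genes with separated groups in each direction of other lists. GYP8, RPL4A, NHP2 and YGL088W fall outside the rule and were named after their values were seen. The members and lists were chosen with earlier results of these data known. Motifs were searched in the 600 bases before coding starts.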

Additional observations from a re-analysis of the deposited data

How the results depend on the processing

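The number of genes called between H4H18A and WT H4 was 0 in the main test, 2 with DESeq2 and 3 with the likelihood-ratio test, and between 0 and 1 when 1 library was left out. The 1 gene, without WT H4 replicate 2, was NHP2, a snoRNP protein (log2 fold change 11.18, against -0.068 when WT H4 replicate 1 is left out instead). The number was 0 under every other alternative, including the fit with all 3 WT libraries as control in all 8 libraries, which was chosen after seeing the data. H4H18A against H4K16Q gave 0 calls except 9 with DESeq2. The labels do not say that a replicate number marks a shared culture or day, so the main test has no block. Same-numbered libraries of H4H18A and WT H4 did deviate together (correlation of replicate deviations 0.485), those of H4H18A and H4K16Q did not (-0.0186), and WT H4 and H4K16Q gave 0.146. With the replicate block 0 genes were called, with 26 higher and 98 lower at an unadjusted p under 0.05.

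The number of higher genes at that p was 2 in the main test, and it was not stable. It was 59 with DESeq2, 26 with the replicate block and 17 with the likelihood-ratio test. Under the other alternatives that kept all 4 libraries it ran from 1 to 10. The number of lower genes, 109 in the main test, moved by more than 1.5 times with DESeq2 (198), with only the 4 libraries (58) and with 10 counts in every library (25). Leaving out WT H4 replicate 1 gave 76 higher and 40 lower genes, and leaving out its partner, replicate 2, gave 486 and 286. The mutant libraries left out gave 7 and 113 (replicate 1) and 14 and 171 (replicate 2). Directions turned for SIR2 in thinned counts (0.13) and for CTT1 (-0.075) and DIG2 (-0.014) with total counts. Leaving out 1 library, log2 fold changes ran from -1.85 to 0.33 for SIR1, -2.02 to 0.75 for SIR2, -1.59 to 2.10 for HHT1, -1.13 to 2.30 for HHF1, -1.49 to 2.36 for HHT2 and -2.07 to 4.14 for CTT1. With 2 libraries a group, WT H4 replicates that differ this much and shallow H4H18A libraries, differences in weakly expressed genes were not resolved.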
